A study of Mus musculus with 3 samples.

Results

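The SiO2-3TF-3C spleen was compared with normal liver, gene by gene, to see which liver genes in it approached the liver level, which missed it and which genes exceeded it. All RNA came from female mice. The SiO2-3TF-3C spleen came from spleens that received SiO2 (silica) together with a treatment named 3TF-3C in the labels and not spelled out there, and the SiO2 spleen, whose level is given beside the others, received SiO2 alone. Both spleen groups therefore carry SiO2, and both were collected on day 82, each as a pool of 5 samples according to the series design. Normal liver served the study as its positive control, with no treatment or age given, and whether it was pooled is not stated. Each group has 1 single-colour array, so 2 of the 3 arrays of the series enter the comparison. With 1 array a group there is no replicate error and no test. Genes are described by their size of difference, with a threshold of 2-fold.

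Hepatocytes, the main cells of the liver, secrete most plasma proteins, build bile acids and urea, store and release glucose and clear drugs and steroids. Their genes are driven together by a small set of transcription factors, among them HNF4, FOXA and C/EBP proteins. The mouse spleen filters blood, holds B and T cell areas and, unlike most adult organs of the mouse, keeps making red cells and granulocytes, more so under stress.

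Levels are log2 fluorescence intensities relative to the 75th percentile of the same array, which is set to 0. Differences are the level in the SiO2-3TF-3C spleen minus the level in liver, and a percentage of liver is the same difference on the linear scale. Values after ± are technical errors from the scanner software (median 0.20 on the log2 scale) and leave out any spread between animals. Of 43020 spots, between 77.2% and 81.3% were well above background on the 3 arrays, and 0 were saturated. With so few arrays, precision is limited throughout. A gene was counted where its probe was well above background on both arrays (16421 genes). A gene below that limit is called dim. Another 791 genes were dim on 1 of these arrays, and their fold is a lower limit, given with the words at least. All 25 plasma protein genes with a probe were well above background in liver, and so were all 68 B, T and NK cell genes and the spleen organ regulators Tlx1 and Nkx2-5. Levels in a bulk sample do not tell fewer cells of a type from less RNA per cell.

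Of 17212 genes with a value, 2729 (15.9%) lay 2-fold or more below liver in the SiO2-3TF-3C spleen, 1848 (10.7%) lay 2-fold or more above it and 12635 (73.4%) were not shown to be past 2-fold. Of these 12635, 12154 were measured on both arrays and lay within 2-fold, and 481 have only a lower limit. The counts of each gene list are to be read against these shares. The median difference over all genes was -0.03. Lower genes made up 59.6% of those past 2-fold, against 49.1% with quantile normalization, and the count of higher genes was 861 with normexp background correction. Large differences lay mostly below liver. At least 4-fold lower were 1136 genes (6.6%) and at least 4-fold higher 221 (1.28%). Among the 2729 lower genes, 691 were nevertheless at least 2-fold above the SiO2 spleen, 1861 were not shown to be 2-fold from it (101 of them by a lower limit) and 19 were at least 2-fold below it. Among the 1848 higher genes, 1695 were within 2-fold of the SiO2 spleen and 132 were at least 2-fold above both other samples. Over all genes with a value against the SiO2 spleen, 5.24% were at least 2-fold above it and 1.39% at least 2-fold below it. Liver itself was at least 2-fold above the SiO2 spleen for 15.4% of genes and at least 2-fold below it for 17%.

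**Figure D1:**
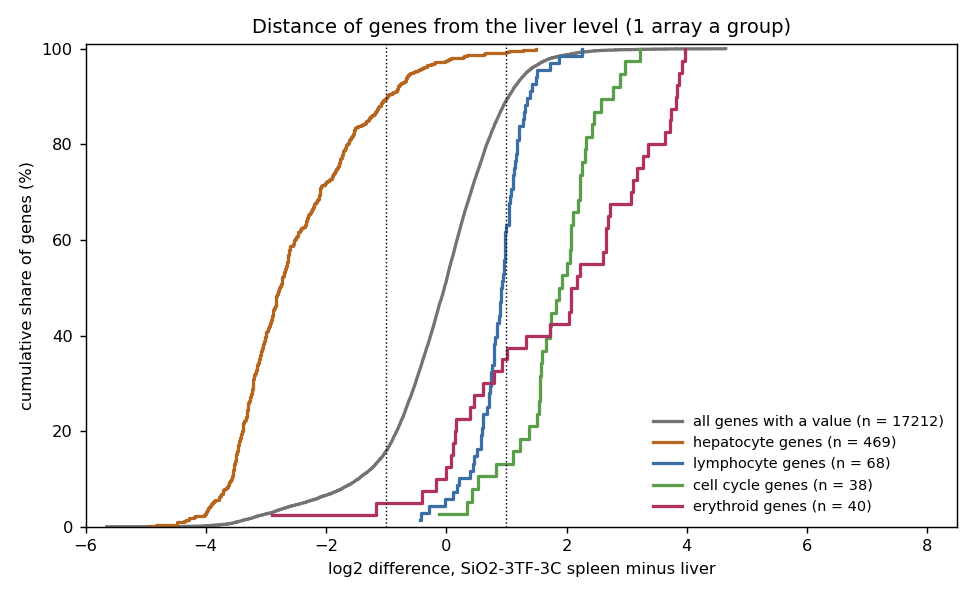
Cumulative share of genes (vertical axis, %) against the log2 difference of the SiO2-3TF-3C spleen minus liver (horizontal axis), for all genes and 4 gene groups; dotted lines mark 2-fold. The hepatocyte curve lies left of all genes with a median of -2.77, and the lymphocyte, cell cycle and erythroid curves lie right of it with medians of 0.92, 1.90 and 2.13.

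Genes that mark liver clustered at a similar fraction of their liver level. The set holds 632 genes whose liver level exceeded that of the SiO2 spleen 16-fold or more and which were not dim in the SiO2-3TF-3C spleen or liver. It was chosen with the same liver and SiO2 spleen arrays, so its positions below liver and above the SiO2 spleen are descriptions. The median difference was -3.19, which is 10.9% of the liver level, and the quartiles were 8.91% and 14.3%. In the band from 6.25% to 12.5% of liver lay 375 genes (59.3%), and in the band from 12.5% to 25% lay 183. Only 33 genes lay between 25% and 50%, 11 at 50% or more, and 30 under 6.25%. Of the 634 such genes when bounds are included, 610 were at least 2-fold above the SiO2 spleen, beside 5.24% of all genes.

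The share of the liver level was related to the brightness of the probe. Genes with liver levels between 0 and 2, 2 and 4, and 4 and 5 had median differences of -3.32, -3.27 and -3.23. The median was 13.9% for the 91 genes between 5 and 6, and 34.5% for the 29 genes above 6. Of the 29 genes above 6, 8 lay at 50% of liver or more, and the other 3 genes at 50% or more, Fabp1, Mup20 and Mup18, had liver levels of 5.47, 5.84 and 5.86. Bright probes did not all lie near liver, as Fbp1, of gluconeogenesis, was at 6.14 in liver and 15.7% of it. No spot was marked as saturated, and the part of probe brightness in this pattern was not tested.

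**Figure D2:**
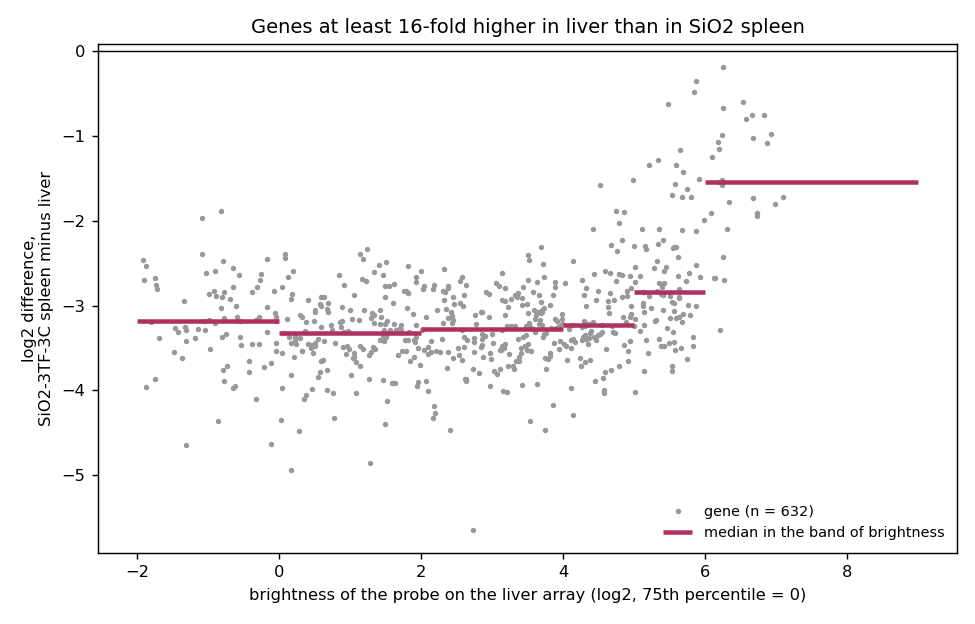
Log2 difference of the SiO2-3TF-3C spleen minus liver (vertical axis) against the brightness of each probe on the liver array (horizontal axis, log2 relative to the 75th percentile) for the 632 genes that mark liver; bars are medians within bands of brightness. The median differences lie between -3.32 and -3.18 up to a brightness of 5, and the median above 6 is 34.5% of liver.

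Promoters of genes from both ends of this range show what their starts share and do not share. The windows below are the 150 bases before the annotated start, from RefSeq on GRCm38.p6, with GTTAAT, a short motif searched for in hepatocyte promoters, in capitals where found on the printed strand (the reverse strand was searched too). Alb, Serpina1e and Fabp1 are among the genes nearest to liver, Hao2 and G6pc among the furthest below it. Their windows lie at chr5:90460720-90460869 on the plus strand, chr12:103956898-103957047 on the minus strand, chr6:71199729-71199878 on the plus strand, chr3:98893231-98893380 on the minus strand and chr11:101367566-101367715 on the plus strand.
Alb: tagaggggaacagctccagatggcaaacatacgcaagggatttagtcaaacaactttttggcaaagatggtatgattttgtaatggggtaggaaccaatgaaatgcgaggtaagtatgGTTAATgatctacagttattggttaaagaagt
Serpina1e: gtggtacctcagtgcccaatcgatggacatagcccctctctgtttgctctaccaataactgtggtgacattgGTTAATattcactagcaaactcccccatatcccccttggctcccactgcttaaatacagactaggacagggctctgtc
Fabp1: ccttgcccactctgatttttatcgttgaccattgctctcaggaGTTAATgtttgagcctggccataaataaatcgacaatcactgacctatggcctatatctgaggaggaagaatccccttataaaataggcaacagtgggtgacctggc
Hao2: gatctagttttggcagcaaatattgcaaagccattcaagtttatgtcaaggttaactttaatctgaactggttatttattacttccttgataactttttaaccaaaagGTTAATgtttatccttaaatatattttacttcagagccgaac
G6pc: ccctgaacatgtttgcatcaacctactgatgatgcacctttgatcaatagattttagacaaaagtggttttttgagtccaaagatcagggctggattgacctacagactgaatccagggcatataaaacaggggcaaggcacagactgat
Over the 250 bases before the start, GTTAAT on either strand stood in 6.43% of all 32851 promoters and in 13.4% of the 425 promoters matched to hepatocyte genes. The share was 11.8% among hepatocyte genes at 12.5% of liver or more and 15.6% among those below. CAAAGT, core letters of HNF4 sites, stood in 12.6% of all promoters and in 20.7% of those of hepatocyte genes. These letters thus stood at both ends of the range, and a match is a description of the sequence and not a site.

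Albumin, the main protein of plasma, came nearest to liver among the genes that mark it. Alb was at -3.94 in the SiO2 spleen, 6.06 in the SiO2-3TF-3C spleen and 6.25 in liver, a difference of -0.19 ± 0.20, or 87.9% of liver. Under other processings its difference ran from -0.19 to 0.16, so the sign is not fixed. Ahsg, the carrier protein fetuin-A, was at -4.14, 5.91 and 6.65 on the same arrays (59.6% of liver). Fabp1, the fatty acid binding protein of liver, was at -1.72, 4.85 and 5.47 (65.2%). In each of these the SiO2-3TF-3C spleen stood beside liver and far above the SiO2 spleen. The lipoprotein genes Apoc1 and Apoc3 lay at 51.0% and 50.3% of liver.

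The remaining genes at 50% of liver or more were members of families with near-identical copies, which a probe may not tell apart. Serpina1e, an alpha-1-antitrypsin, was at -0.17, 5.93 and 6.53 (65.9% of liver) by its brightest probe and differed by -1.17 by a second one. Serpina1c was at 63.1% and Serpina1a at 57.7%. The major urinary proteins Mup18, Mup20 and Mup19, carriers of pheromones, were at 78.6%, 71.9% and 59.4%. A second probe for Mup20 gave a difference of -1.75 and a second one for Serpina1a -1.90, so these genes were close to liver by their brightest probe alone. Mup5 and Mup21 differed by -3.76 and -3.41, and the list of 7 major urinary proteins had a median of -1.52. This list does not hold Mup18, Mup19 or Mup17, which differed by -0.35, -0.75 and -1.02.

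At the other end stood enzymes, receptors and secreted signals of the hepatocyte. Hao2, a peroxisomal oxidase, was dim in the SiO2 spleen, at -4.77 in the SiO2-3TF-3C spleen and at 0.17 in liver, a difference of -4.94 ± 0.24, or 3.26% of liver. G6pc, which releases free glucose, was at -2.84, -0.83 and 3.53 (4.85% of liver). Ppara, the receptor that drives fatty acid oxidation genes, was at -4.14, -0.14 and 4.14 (5.12%). These stood between the other samples, closer to the SiO2 spleen for G6pc and midway for Ppara. Egfr, the epidermal growth factor receptor, was at -1.92, -0.73 and 3.75, and its 3 probes gave differences from -4.47 to -3.40. Also among the 12 hepatocyte genes furthest below liver were Slc22a27, Hsd3b5, Lbp, Apoa5, Tkfc and Apob, with differences from -4.49 to -4.17. A second probe for Apob gave -2.52. With normexp the differences of Hao2, Slc22a27, Lbp and Apob were -3.09, -3.06, -3.17 and -2.55.

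A few of the genes that mark liver were not shown to be 2-fold above the SiO2 spleen. Of the 634 genes that mark liver, 17 were measured in both spleens and less than 2-fold apart there. All 17 were above the SiO2 spleen, from 0.23 for Mfsd2a to 0.99 for Mobp, so several lay just under 2-fold. Another 5 were dim in the SiO2 spleen, with a lower limit under 2-fold, and 2 were dim in both spleens. Mfsd2a, a lipid transporter, was at -2.84, -2.61 and 1.52 (5.73% of liver). Me1, the malic enzyme of fat synthesis, was at -0.88, -0.10 and 3.41 (8.81%), and Fst, the activin antagonist follistatin, at -4.19, -3.79 and -0.11 (7.81%). The steroid-metabolising Cyp3a13 was at 10.6% of liver. Fst, Me1 and Cyp3a13 lay 0.40, 0.79 and 0.87 above the SiO2 spleen. Serpina7, which carries thyroxine, and Adamts16 were dim in both spleens and at least 28.3-fold and 29.3-fold below liver. With normexp the 2 differences were -2.20 and -2.04.

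**Figure D3:**
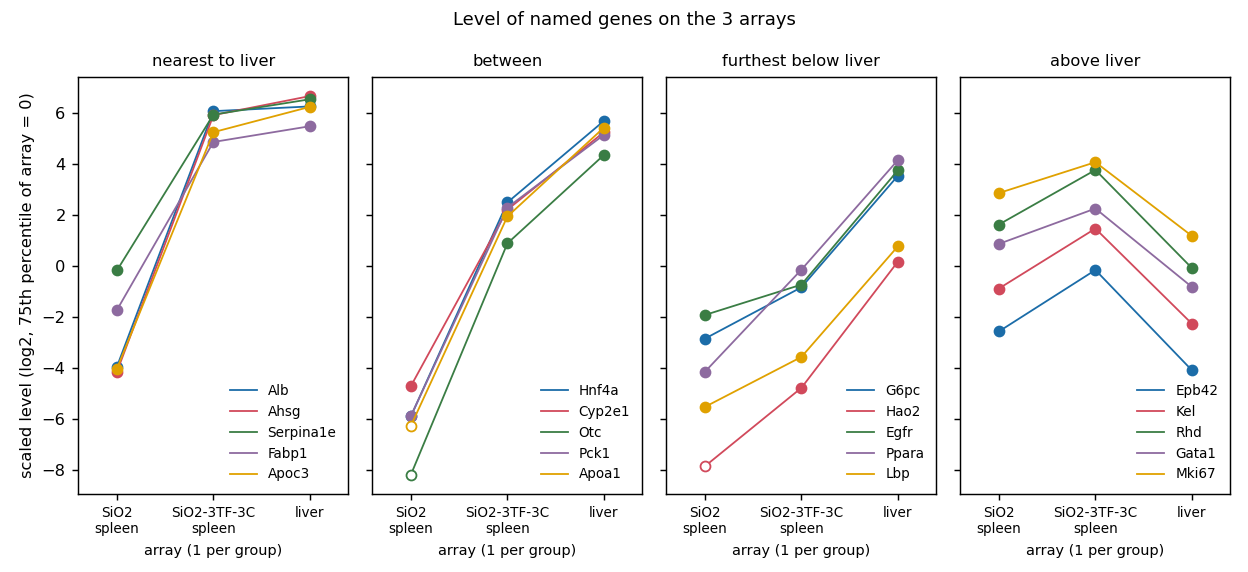
Scaled log2 level (vertical axis, 75th percentile of the array at 0) of 20 genes on the SiO2 spleen, SiO2-3TF-3C spleen and liver arrays, in 4 panels; open points were not well above background. Alb lies 0.19 below its liver level, Hao2 lies 4.94 below it, and Epb42 lies 3.92 above it.

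Over 21 lists of hepatocyte genes, 504 genes in all, 469 had a value, 30 had no named probe and 5 were dim. At least 2-fold lower than liver were 421 of the 469 (89.8%, beside 15.9% of all genes), 45 were within 2-fold and 3 were at least 2-fold higher. The median was -2.77 or 14.7% of liver, with quartiles of 10.2% and 28.3%. The 3 higher genes were the drug transporter Abcb1a at 1.27, the clock factor Dbp at 1.05 and Cspg5, which was at least 2.80-fold higher. None of these was past 2-fold throughout, since normexp gave 0.70 for Abcb1a and 0.11 for Cspg5 and the mean over probes gave 0.83 for Dbp. Of the 45 genes within 2-fold, 28 were also within 2-fold of liver in the SiO2 spleen, and for 9 liver exceeded the SiO2 spleen 16-fold or more. Nearness to liver was thus for most of them not a difference from the SiO2 spleen. Liver was at least 2-fold above the SiO2 spleen for 429 of 470 hepatocyte genes, beside 15.4% of all genes. The SiO2-3TF-3C spleen was at least 2-fold above the SiO2 spleen for 316 of 466, beside 5.24% of all genes.

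Among the 12 hepatocyte genes nearest to liver, 10 were within 2-fold of liver in the SiO2 spleen as well. Alb and Pon3, a lactonase of lipoproteins, were the exceptions, and Pon3 was at 0.66, 1.86 and 2.19. Slc25a2, Zhx2 and Il1rn, also among the 12, had liver levels of -4.76, -4.97 and -4.23. The lowest level well above background in liver was -5.57. Of 22 hepatocyte genes with a liver level of -2 or below, 15 had a difference above -1. F10, Slc10a1 and Pigr, which encode coagulation factor X, the bile acid uptake transporter NTCP and the receptor that carries IgA, looked alike on all 3 arrays by their brightest probe, at 6.86, 6.31 and 6.23 for F10. Their second probes gave differences of -2.94, -3.11 and -3.01, so their nearness holds for 1 probe of each.

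Secreted proteins reached from near the liver level to far below it. The 25 plasma proteins and carriers had a median of -2.31, with 19 at least 2-fold lower and 6 within 2-fold. Apoa1, the main protein of HDL, was dim in the SiO2 spleen and at 1.94 and 5.42 in the SiO2-3TF-3C spleen and liver (8.99% of liver). Coagulation and fibrinolysis genes stood lowest of all lists at -3.24, with 19 of 20 lower. Within the fibrinogen chains Fgg and Fgb were at 34.5% and 30.2% of liver while Fga differed by -4.02, and F2, prothrombin, was at 39.6%. All 20 liver complement genes were lower (median -2.40), from C3, the central component, at -1.02 to Masp2 at -3.94, and C3 was within 2-fold under 5 other processings. Protease inhibitors had 15 of 18 lower (median -2.07) and acute phase genes 17 of 19 (median -3.01), among them the iron hormone Hamp at 8.08% of liver and Hp, haptoglobin, at 30.5%.

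Detoxification genes were lower almost throughout. Of 40 cytochrome P450 genes 38 were at least 2-fold lower, with a median of -2.87. Cyp2e1, which oxidises ethanol, was at -4.69, 2.21 and 5.24 (12.2% of liver). Cyp3a11, a drug-metabolising enzyme, was dim in the SiO2 spleen and at 19.8% of liver, and Cyp2f2 was at 29.2%. With outlier-flagged spots kept, the difference of Cyp2e1 was -1.87 in place of -3.03 and that of Cyp3a11 -1.07 in place of -2.34. All 44 conjugation enzymes and carboxylesterases were lower (median -3.11), with Ces1e lowest at -3.87. Membrane transporters had 29 of 34 lower (median -2.97), led by Slc22a27 and by Slc17a1 at -3.98. Bile acid synthesis genes were lower for 15 of 15 (median -2.77), with Cyp7a1, the rate-limiting enzyme, at -4.93, -1.84 and 0.92 (14.7% of liver).

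Metabolic lists stood at similar distances. Urea cycle and glutamine genes were lower for 10 of 11 (median -2.66). Otc, which makes citrulline, was at 9.09% of liver, Arg1, which releases urea, at 16.1% and Cps1, the first enzyme of the cycle, at 18.1%. Glucose and glycogen genes were lower for 22 of 23 (median -2.84), with Pck1, an enzyme of gluconeogenesis, at 13.9% and the mitochondrial Pck2 at a difference of 0.64, which was -0.02 with normexp. Amino acid and one-carbon genes were lower for 42 of 43 (median -3.08). Fatty acid oxidation had 29 of 30 lower (median -2.34) and lipid synthesis 31 of 35 (median -2.69). The beta-oxidation enzymes Acaa1a, Hadhb and Acadl, at -0.67, -1.28 and -1.31, stood nearest to liver among fatty acid oxidation genes, and Hadhb and Acadl were at the same level in both spleens within their technical error.

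**Figure D4:**
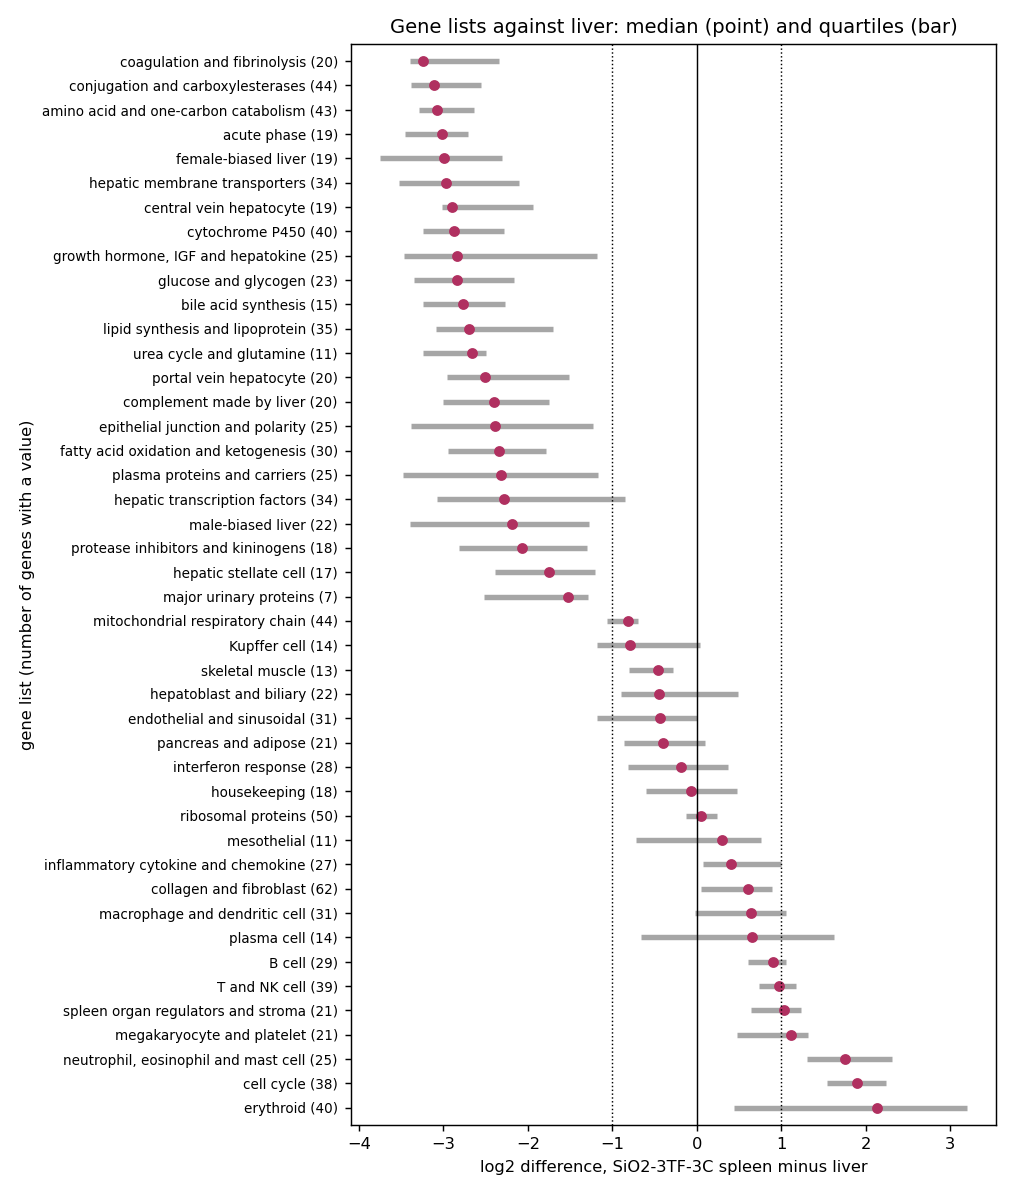
Median (point) and quartiles (bar) of the log2 difference of the SiO2-3TF-3C spleen minus liver (horizontal axis) for 44 gene lists (vertical axis, with the number of genes that have a value); dotted lines mark 2-fold. Medians run from -3.24 for coagulation genes to 2.13 for erythroid genes, with ribosomal protein genes at 0.05.

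Of 34 hepatic transcription factors with a value, 24 were at least 2-fold lower than liver, 9 were within 2-fold and 1, Dbp, was higher, with a median of -2.28. Hnf4a was at -5.88 in the SiO2 spleen, 2.49 in the SiO2-3TF-3C spleen and 5.68 in liver, a difference of -3.19. The forkhead factors Foxa1, Foxa2 and Foxa3 were dim in the SiO2 spleen and at 6.96%, 7.67% and 13.1% of liver. Nr1h4, the bile acid receptor, was at -5.65, -1.17 and 2.44 (8.16%). Each of these 5 factors was above the SiO2 spleen and below liver. Cebpa, a factor of hepatocyte maturity, differed from liver by -2.99 and from the SiO2 spleen by 0.31. Gata4 was at -0.69, -1.24 and 0.09, lowest in the SiO2-3TF-3C spleen.

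Position within the liver lobule and sex bias were covered by 4 lists. Central vein genes had a median of -2.90 (18 of 19 lower) and portal vein genes -2.51 (15 of 20 lower). Glul, glutamine synthetase of the cells around the central vein, was at 1.93, 2.18 and 4.30 (23.0% of liver), and Lgr5, a Wnt target there, was at -4.15, -3.87 and -0.66 (10.8%). Both stayed within 2-fold of the SiO2 spleen. Gls2, the glutaminase of the portal side, was at -4.02, 1.23 and 4.42 (10.9%). Female-biased genes had a median of -2.99 (17 of 19 lower), with Cyp2b9 at 6.77% of liver among them. Male-biased genes had a median of -2.18 (17 of 22 lower), which was -2.75 once the 2 bounds in that list were left out. Under other processings the female-biased median ran from -3.55 to -2.70 and the male-biased one from -2.75 to -1.67. These ranges overlap, so a gap between the female-biased and male-biased lists is not fixed. Growth hormone, IGF and hepatokine genes had 21 of 25 lower (median -2.84), with Igf1 at 20.9% of liver and Igfals, its carrier subunit, at 6.28%.

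Hepatoblast and biliary genes, which mark fetal and bile duct cells, lay within 2-fold of liver about as often as all genes. Of 22 with a value, 5 (22.7%, beside 15.9% of all genes) were at least 2-fold lower and 2 (9.09%, beside 10.7%) higher. The other 15 were within 2-fold, beside 73.4% of all genes, and the median was -0.44. Liver itself was at least 2-fold above the SiO2 spleen for 7 of 22 and at least 2-fold below it for 3. Afp, the fetal counterpart of albumin, was at -0.60, -1.12 and -1.43, within 2-fold on all 3 arrays. Krt8 and Krt18, the keratins of hepatocytes, were at 8.11% and 8.77% of liver. Sox9, of bile duct cells, was at 13.9%. The adhesion gene Epcam was at -2.93, -1.80 and -4.40, higher than liver by 2.60 (1.15 with normexp), and Cd24a was higher by 1.84. Junction and polarity genes had 21 of 25 lower (median -2.39), with the gap junction gene Gjb1 at 15.3% of liver.

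Other cells of the liver gave mixed lists. Kupffer cell genes, of the resident macrophages, had 5 of 14 lower (35.7%, beside 15.9% of all genes). Another 1 was higher (7.14%, beside 10.7%), and the median was -0.79. Clec4f, a marker of these cells in mouse, was at -5.90 in the SiO2 spleen, 0.51 in the SiO2-3TF-3C spleen and 3.36 in liver (13.9% of liver), and Vsig4 was at -4.57, -0.45 and 2.44 (13.4%). Clec4f and Vsig4 were the lowest of the list, while Marco, Fcna, Timd4 and Slc40a1 differed by 1.05, 0.56, 0.37 and 0.21. The summed level of the list, in multiples of the 75th percentile, was 91.5, 91.2 and 117.6 on the same arrays. Slc40a1, a member of that sum, was at 5.11, 5.17 and 4.96 on the log2 scale. Stellate cell genes had 14 of 17 lower (median -1.75), with the collectins Colec10 and Colec11 at 8.21% and 9.35% of liver. Endothelial genes had 9 of 31 lower (29.0%, beside 15.9% of all genes) and 2 higher (6.45%, beside 10.7%), with a median of -0.44. Oit3 and Lyve1, of liver sinusoids, differed by -2.85 and -2.41, and Stab2, of sinusoids in both organs, by 0.17.

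Red cell genes had the highest median of the lists, although with normexp it was 1.65, below the cell cycle median of 1.69. Of 40 erythroid genes with a value, 26 (65.0%, beside 10.7% of all genes) were at least 2-fold higher than in liver, 12 were within 2-fold and 2 were lower, with a median of 2.13. The 2 lower genes were Tlcd4 at -2.90 and Alad, of haem synthesis, at -1.16. Epb42, a protein of the red cell membrane skeleton, was at -2.56 in the SiO2 spleen, -0.15 in the SiO2-3TF-3C spleen and -4.08 in liver, a difference of 3.92. Kel and Rhd, blood group proteins, were at -0.88, 1.47 and -2.26, and at 1.63, 3.76 and -0.08. In all 3 genes the SiO2-3TF-3C spleen was highest and liver lowest. Add2, adducin, differed by 3.97 and Trim10 by 3.88. With normexp the difference of Epb42 was 2.35.

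Several regulators of the lineage were also above liver. Gata1, which red cells require, was at 0.87, 2.25 and -0.82, and Klf1, the activator of adult globin, at -1.38, 0.94 and -1.71. Gfi1b and Tal1 differed from liver by 3.27 and 2.68, and Tfrc, the receptor for transferrin iron, by 2.66. Not all members did so. Hemgn, a nuclear protein of red cell precursors, was at 5.82, 5.47 and 5.87, and Sptb, of the membrane skeleton, differed by 0.11 (-0.22 with normexp). Globin genes did not show such a difference, with Hba-a1 at 6.11, 6.27 and 5.65 and Hbb-bt at 5.91, 5.69 and 5.60. Per the labels, globin messages were depleted before labelling, in a protocol written for blood.

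The windows of 3 erythroid genes illustrate the GATA letters AGATAA, in capitals where found on the printed strand, again as the 150 bases before the start from RefSeq on GRCm38.p6. They lie at chr6:41704326-41704475 on the minus strand for Kel, chr4:134864386-134864535 on the plus strand for Rhd and chr17:36869424-36869573 on the plus strand for Trim10.
Kel: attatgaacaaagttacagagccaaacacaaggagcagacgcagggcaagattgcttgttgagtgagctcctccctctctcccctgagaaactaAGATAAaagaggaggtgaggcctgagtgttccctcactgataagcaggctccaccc
Rhd: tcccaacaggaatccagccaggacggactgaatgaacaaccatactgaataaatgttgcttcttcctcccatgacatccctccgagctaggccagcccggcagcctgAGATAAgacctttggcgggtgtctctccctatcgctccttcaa
Trim10: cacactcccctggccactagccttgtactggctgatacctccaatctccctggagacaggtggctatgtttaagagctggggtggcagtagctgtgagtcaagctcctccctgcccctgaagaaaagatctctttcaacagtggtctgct
Over the 250 bases before the start and on both strands, AGATAA stood in 9.99% of all promoters and in 25.7% of the 35 promoters matched to the erythroid list. Kel and Rhd hold these letters in the printed window and Trim10 does not, and the 3 genes differed from liver by 3.72, 3.84 and 3.88.

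Dividing cells and granulocytes were the next groups above liver. The cell cycle list had 33 of 38 members 2-fold or more above liver (86.8%, beside 10.7% of all genes). The list had 0 below and 5 within 2-fold, with a median of 1.90. Against the SiO2 spleen, 6 of 38 were at least 2-fold higher and 1 lower. Liver was at least 2-fold below the SiO2 spleen for 30 of 37. Mki67, the common marker of dividing cells, was at 2.86, 4.06 and 1.18. Cdc6, which licenses replication, was at -0.50, 0.85 and -2.37, and Lmnb1, of the nuclear lamina, at 0.69, -0.59 and -3.56, below the SiO2 spleen. Neutrophil, eosinophil and mast cell genes had 20 of 25 higher than liver (80%, beside 10.7% of all genes), with a median of 1.75. Prg2 and Epx, granule proteins of eosinophils, differed by 3.47 and 2.90 (1.19 for Epx with normexp), and the neutrophil granule genes Ltf and Mpo by 2.83 and 2.31. Prg2 was at -0.40, 1.12 and -2.35, so liver was lowest there too. The other 5 members of the list were within 2-fold. Among these were the neutrophil genes Prtn3, S100a9 and Lcn2 at -0.08, 0.23 and 0.35, and the mast cell gene Cma1 at -0.85. Against the SiO2 spleen, 5 of 25 genes of the list were at least 2-fold higher and 0 lower. Liver was at least 2-fold below the SiO2 spleen for 20 of 25. Megakaryocyte and platelet genes had 13 of 21 higher than liver (61.9%, beside 10.7% of all genes). Their median was 1.12, with Pf4 at 3.54, 3.38 and 2.20.

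**Figure D5:**
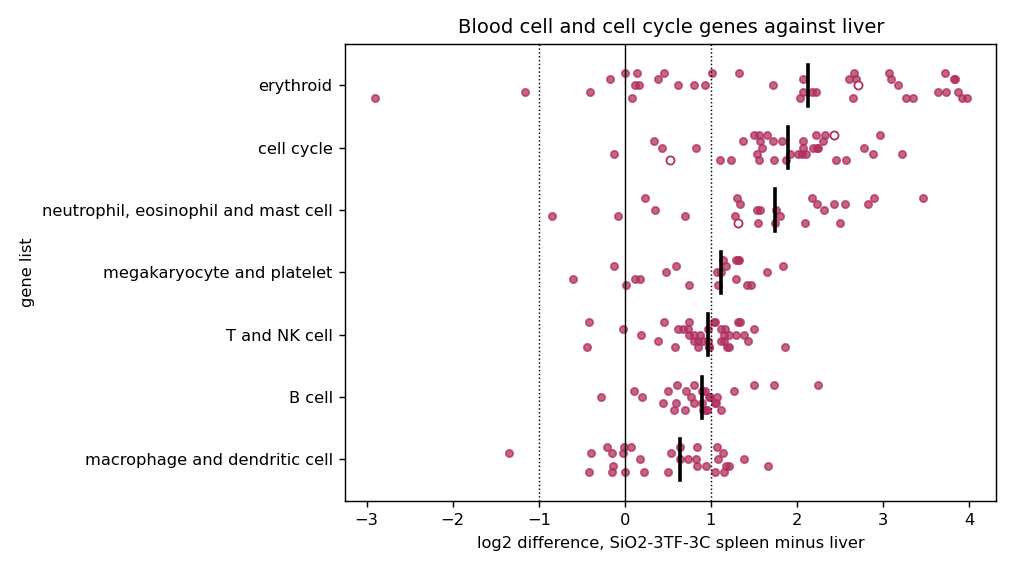
Log2 difference of the SiO2-3TF-3C spleen minus liver (horizontal axis) for each gene with a value in 7 lists (vertical axis); vertical bars are medians, open points are bounds and dotted lines mark 2-fold. Medians are 2.13 for erythroid, 1.90 for cell cycle, 1.75 for granulocyte and mast cell, 0.97 for T and NK cell, 0.90 for B cell and 0.64 for macrophage and dendritic cell genes.

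Lymphocyte genes exceeded liver by less. The 68 genes divided into 25 that lay 2-fold or more above liver (36.8%, beside 10.7% of all genes) and 43 within 2-fold. Their median was 0.92. B cell genes had a median of 0.90 (8 of 29 higher) and T and NK cell genes 0.97 (17 of 39 higher). Btk, a kinase of B cell receptor signalling, was at 1.48, 0.72 and -1.53, and Cd3e, of T cells, at 0.55, 0.10 and -0.08. The summed level of the 68 genes was 521.9, 357.1 and 205.3 times the 75th percentile on the SiO2 spleen, SiO2-3TF-3C spleen and liver arrays, and 0 of the 68 were dim in liver. The part of lymphocyte RNA on the liver array in these differences was not tested. Plasma cell genes split, with 7 of 14 higher (50%, beside 10.7% of all genes), among them Tnfrsf17 at 2.18 and Mzb1 at 2.07. Sdc1, which hepatocytes also use, was lower at -2.39.

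Stroma and matrix genes had medians above 0. Spleen organ and stroma genes counted 12 of 21 above liver by 2-fold or more (57.1%, beside 10.7% of all genes). Another 1 was below (4.76%, beside 15.9%), and the median was 1.03. Tlx1, without which the spleen does not form, was at -0.69, -0.83 and -2.36, and its difference of 1.53 was 0.97 with normexp. Collagen and fibroblast genes had 10 of 62 higher (16.1%, beside 10.7% of all genes), 4 lower (6.45%, beside 15.9%) and 48 within 2-fold, with a median of 0.60. Col1a1, the main fibrillar collagen chain, was at 4.55, 4.47 and 3.87. Mmp3 and Timp1, a matrix protease and a protease inhibitor, were higher by 2.58 and 2.53, and Col18a1 differed by -2.86. Macrophage and dendritic cell genes had 9 of 31 higher (29.0%, beside 10.7% of all genes) and 1 lower (3.23%, beside 15.9%), with a median of 0.64.

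At least 2-fold above both liver and the SiO2 spleen were 132 genes, beside 17212 with a value against liver. Of these 132, 106 were dim in no sample, and the others rest on a lower limit against liver, the SiO2 spleen or both. The 132 included 22 of 40 erythroid, 5 of 38 cell cycle and 4 of 25 granulocyte and mast cell genes with a value. They also held 1 of 469 hepatocyte genes, and 96 were in no list. Btnl10, a butyrophilin-like gene, stood furthest above liver, at -2.80, -0.29 and -4.94, a difference of 4.65 that was 2.41 with normexp. Slc38a5, an amino acid transporter, was at -0.48, 1.64 and -1.98, and Asns, asparagine synthetase, at 0.35, 1.89 and -0.98. Cathepsin E, Ctse, was at 1.36, 2.97 and -0.60. Each was highest in the SiO2-3TF-3C spleen. Among bounds, the membrane skeleton gene Tmod1 and the ammonium transporter Rhag of red cells were at least 7.05-fold and 6.56-fold above liver, and with normexp their differences were 0.67 and 0.64.

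The remaining lists had medians within 2-fold of liver. All 50 ribosomal protein genes were within 2-fold (median 0.05). Mitochondrial respiratory chain genes had 14 of 44 lower (31.8%, beside 15.9% of all genes) and 0 higher (median -0.82). All 44 differences were below 0, from -0.23 for Ndufb3 to -1.64 for Cyc1, though Cox5a reached 0.11 under other processings. Interferon response genes had a median of -0.19 that changed sign with quantile normalization and in the authors' deposited values, and housekeeping genes one of -0.07 that did so under the same settings and with the mean over probes. Inflammatory cytokine and chemokine genes had 7 of 27 higher (25.9%, beside 10.7% of all genes) and 3 lower (11.1%, beside 15.9%), with a median of 0.40. Nos2, the inducible nitric oxide synthase, was higher by 2.20 and by 0.55 with normexp, and the neutrophil chemokine Cxcl1 was at -1.66. Mesothelial genes had a median of 0.30 that changed sign with no filter on dim genes, skeletal muscle genes -0.46, and pancreas and adipose genes -0.40 with Car3 at 8.99% of liver.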

How the data were processed

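Per the file headers, the deposited scanner files hold linear fluorescence intensity of each spot after background subtraction, extracted with Feature Extraction 11.0.1.1 on array design 026655 (build mm9). The submitters' processing notes name version 9.1. The authors' deposited series table holds log2 values by comparison with the arrays (r from 0.993 to 0.996); how they were normalized was not given in these sources. All 3 arrays were read on 1 slide and in 1 scan, each group at its own position.

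Control and outlier-flagged spots were left out, spots of a probe were averaged on the log2 scale, and the 75th percentile of each array was subtracted. Probes were named by RefSeq accession through a GRCm38.p6 gene table (27038 of 39112 probes, 69.1%). Each of 20546 genes was given by its brightest probe over the 3 arrays. Of 4125 genes with several probes, 15.3% had probes over 1 log2 apart. For a gene dim on 1 array the dim side was set to its own level or, if greater, to the detection floor of that array (-6.19 in the SiO2-3TF-3C spleen and -5.57 in liver). No test was possible, so sizes, counts and medians are given. The calculation was tested on simulated data.

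The members and the 44 lists were chosen with earlier results of these data known. The rule for named genes took the 12 highest and 12 lowest differences, the 6 highest bounds each way (at most 2 genes whose symbols share their first 3 letters, no predicted genes or pseudogenes), up to 3 nearest, lowest and highest members of each list, the 12 hepatocyte genes nearest to and furthest from liver, and a set of anchor genes. Genes at least 16-fold higher in liver, genes above both other samples and other list members were named after their values were seen. Python 3.11.15, pandas 2.3.3, numpy 2.4.6, matplotlib 3.10.9, R 4.3.3 and limma 3.58.1 (normexp) were used. Normexp with offset 50 used median signals, because the mean signal column was not in the files used here. Other alternatives were scaling to housekeeping genes or the median, quantile normalization, the deposited values, and other rules for probes, dim genes and flagged spots. Some genes are not reported here.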

Additional observations from a re-analysis of the deposited data

How the results depend on the processing

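Over 10 alternatives no list median or named gene past 2-fold changed direction. The 2729 lower genes numbered 1702 in the authors' deposited values, which gave a value for 12586 genes, and the 1848 higher genes numbered 861 with normexp. The hepatocyte median was -2.50 with normexp, -2.54 with quantile normalization and -2.55 in the deposited values. The erythroid median was 1.65 with normexp, and the median of genes that mark liver -2.79. The cause of these changes was not tested. Lower genes made up 59.6% of those past 2-fold, 49.1% with quantile normalization, 49.9% in the deposited values and 68.4% with normexp. The median of all genes was -0.17 with normexp, 0.11 with quantile normalization and 0.10 in the deposited values. Relative to these shifts the hepatocyte and erythroid medians kept their directions. Of 234 named genes at least 2-fold apart, 193 stayed past 2-fold under every alternative that gave a value and 41 did not. Beside those given with their results, normexp moved the differences of these named genes by over 1.5 times on the linear scale: Mfsd2a to -3.35, Fst to -2.62, Slc17a1 to -2.96, Cyp7a1 to -2.13, Foxa1 to -2.94, Foxa3 to -2.31, Lgr5 to -2.17, Cyp2b9 to -3.13, Krt8 to -2.91, Sox9 to -2.24, Kel to 2.99, Add2 to 2.65, Trim10 to 2.94, Lmnb1 to 1.74, Prg2 to 2.67 and Tnfrsf17 to 1.36. Igfals and Gfi1b moved likewise and stayed past 4-fold. With quantile normalization F2 and Hadhb were within 2-fold of liver, at -0.92 and -0.82. No paired analysis was possible because each group has 1 array. Signal over background limits the dim genes most, and the size of a bound depends on the background correction.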

Other observations

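In 19 genes, none of them in a list, the SiO2-3TF-3C spleen lay 2-fold or more below both liver and the SiO2 spleen, and 21 genes were at least 2-fold above liver and at least 2-fold below the SiO2 spleen. Serpina12, the adipokine vaspin, was at -2.99 in the SiO2 spleen, -4.17 in the SiO2-3TF-3C spleen and -1.37 in liver. Dnaaf1, an assembly factor of motile cilia, was at -3.04, -4.10 and -1.82. The second set included Lmnb1 and the B cell gene Cd72, which differed from liver by 1.11. These genes were named after their values were seen.

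Some genes above both other samples belong to no blood cell list. Slpi, a secreted inhibitor of neutrophil elastase, was at 4.25, 5.44 and 2.89. Penk, which encodes enkephalin, was at -0.29, 0.79 and -1.70, and the matrix protein gene Thbs4 was at -0.35, 0.66 and -2.11. Sphk1, a kinase that makes sphingosine phosphate, was at 0.74, 2.20 and -0.51. In each the SiO2-3TF-3C spleen was highest and liver lowest.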
